A study of Mus musculus with 6 samples.

Results

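Class I phosphoinositide 3-kinases (PI3K) and the proteins that oppose them were followed in IL-2-activated CD8+ T cells (CD8-TC) that lack the transcription factor Runx3. The set held 8 genes, chosen by name with earlier results of these data known. These were the catalytic subunit genes Pik3cg, Pik3cd and Pik3ca, the regulatory subunit genes Pik3r5 and Pik3r1, the inhibitor Pik3ip1 and the phosphatases Inpp4b and Inpp5d. All 8 had exactly 1 row in the table of array values, out of 19938 genes that a row with a single symbol represents, and all 8 were among the 10021 genes tested. A gene was tested where at least 1 of its 6 values reached 4.26, the median of all values on the log2 scale. Each member lay above that median on every array, with values between 6.64 and 10.94.

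The comparison was between 3 Runx3-/- (KO) and 3 wild-type (WT, Runx3 +/+) mice of the ICR strain, 6 weeks old and labelled as males, with 1 array per mouse. Splenic CD8-TC of both genotypes were selected with anti-CD8 magnetic beads, stimulated through the T cell receptor (TCR) with anti-CD3 and anti-CD28 for 2 days, and then grown in 100 units per ml of IL-2 for 4 days. Flow sorting was applied to the Runx3-/- cells alone, first to take out CD11c+CD8+ dendritic cells and, after culture, CD4+CD8- T cells, so genotype and sorting cannot be told apart. Runx3 is absent from every cell of these mice and not from T cells alone, per the genotype labels, so the cells also developed in a mutant host.

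In T cells, class I PI3K turns a membrane lipid, PIP2, into PIP3, which recruits kinases and adaptors with pleckstrin homology (PH) domains, among them those of the Akt pathway. Class IA enzymes pair p110alpha (Pik3ca) or p110delta (Pik3cd) with a p85-type subunit (Pik3r1) and act below the TCR, CD28 and the IL-2 receptor. The class IB enzyme p110gamma (Pik3cg) pairs with p101 (Pik3r5) and is switched on by G protein beta-gamma subunits below chemokine receptors. Pik3ip1 is a membrane protein that binds and inhibits p110. SHIP-1 (Inpp5d) dephosphorylates PIP3, and Inpp4b removes the 4-phosphate from the lipid that SHIP-1 makes.

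Runx proteins bind the motif TGTGGT or its variants, which are TGTGGC as well as TGCGGT and also TGCGGC, so these were searched on both strands in the 250 bases before each annotated start of the 8 members (RefSeq, build GRCm38.p6). The members had 12 such windows, and 3 of them, in 2 members, held a match: the single Inpp4b window and 2 of the 3 Pik3cd windows. For comparison, 38% of 32851 windows of the same length over all genes held at least 1 match and 8.92% held 2 or more, with 14% for TGTGGT, 15.7% for TGTGGC, 5.1% for TGCGGT and 9.47% for TGCGGC. The windows of the 2 members that passed the 1.5-fold threshold used below are shown, 5′ to 3′ on the strand of the gene. The first Pik3cg window lies at chr12:32208660-32208909 on the minus strand and the Inpp4b window at chr8:81342312-81342561 on the plus strand, and capitals mark the matches:
Pik3cg: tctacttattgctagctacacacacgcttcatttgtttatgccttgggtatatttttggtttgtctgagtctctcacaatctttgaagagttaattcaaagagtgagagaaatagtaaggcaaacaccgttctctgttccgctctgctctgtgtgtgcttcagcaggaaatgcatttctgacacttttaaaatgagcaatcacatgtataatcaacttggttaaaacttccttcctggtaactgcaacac
Inpp4b: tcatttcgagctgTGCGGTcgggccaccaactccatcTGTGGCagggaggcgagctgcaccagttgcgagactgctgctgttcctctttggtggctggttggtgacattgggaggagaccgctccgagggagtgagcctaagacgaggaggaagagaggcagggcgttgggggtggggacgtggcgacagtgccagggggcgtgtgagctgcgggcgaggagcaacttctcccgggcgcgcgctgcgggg
The matches of Inpp4b, a TGCGGT and a TGTGGC, begin 237 and 213 bases before the start. The Pik3cg window has no capitals, and its other window, which overlaps it, held no match either. A match here is a description of the letters, and binding was not measured in these arrays. The study measured Runx3 binding separately, by chromatin immunoprecipitation and sequencing, in IL-2-activated CD8-TC. It counts Pik3cg and Inpp4b as Runx3-regulated in activated CD8-TC, NK cells or both. By its definition such a gene has a bound region with a motif, and it reports most bound regions far from starts.

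Before the members' values, 3 features of the arrays have to be stated. The Runx3 row did not separate the genotypes, at 9.10 ± 0.18 in KO and 8.73 ± 0.45 in WT cells (log2, SD, n = 3 each; limma adjusted p = 0.521), and since no source used here gives the disrupted part of the gene, every direction follows the labels. The array of WT mouse 1 had Xist at 10.64, against 3.31 to 3.40 on the other 5 arrays, which goes against its male label. KO2 stood apart in cell-cycle genes, with a mean level over 14 G2/M genes of 6.98, against 8.08 to 9.12 on the other arrays, and KO2 and WT2 formed the ends of the first principal component, which held 49.6% of the variance. Results are therefore also given without WT1 or without KO2 and WT2 where these matter. T cell identity genes were high on all arrays (mean level of 9 genes 10.49 to 10.70 in KO and 10.17 to 10.47 in WT cells), and 7 of 8 B cell markers and 14 of 15 dendritic cell and myeloid markers stayed below the table median on every array. In bulk RNA, fewer cells of a type and less RNA per cell cannot be told apart.

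Of the 8 members, 1 fell and none rose at an adjusted p under 0.05 (limma, Benjamini-Hochberg over the 10021 genes), a call that 0.629% of all tested genes received. At the threshold used in the study, an unadjusted p under 0.05 with a 1.5-fold change, 1 member was higher (Inpp4b) and 1 lower (Pik3cg) in KO cells, and this threshold was passed by 3.97% of tested genes upward and by 4.33% downward. The 3 KO values lay wholly above the 3 WT values for 1 member and wholly below for 2, against 11.6% and 10.9% of all tested genes. The study lists Pik3cg and Inpp4b among genes that differ on these same arrays, so their directions are not independent evidence. The median log2 difference, KO minus WT, was 0.08 over the members and -0.01 over all tested genes. It was -0.27 without KO2 and WT2, -0.04 without KO2 and -0.22 without WT2, and so its sign depended on these arrays. Without WT1 no member changed sign.

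**Figure D1:**
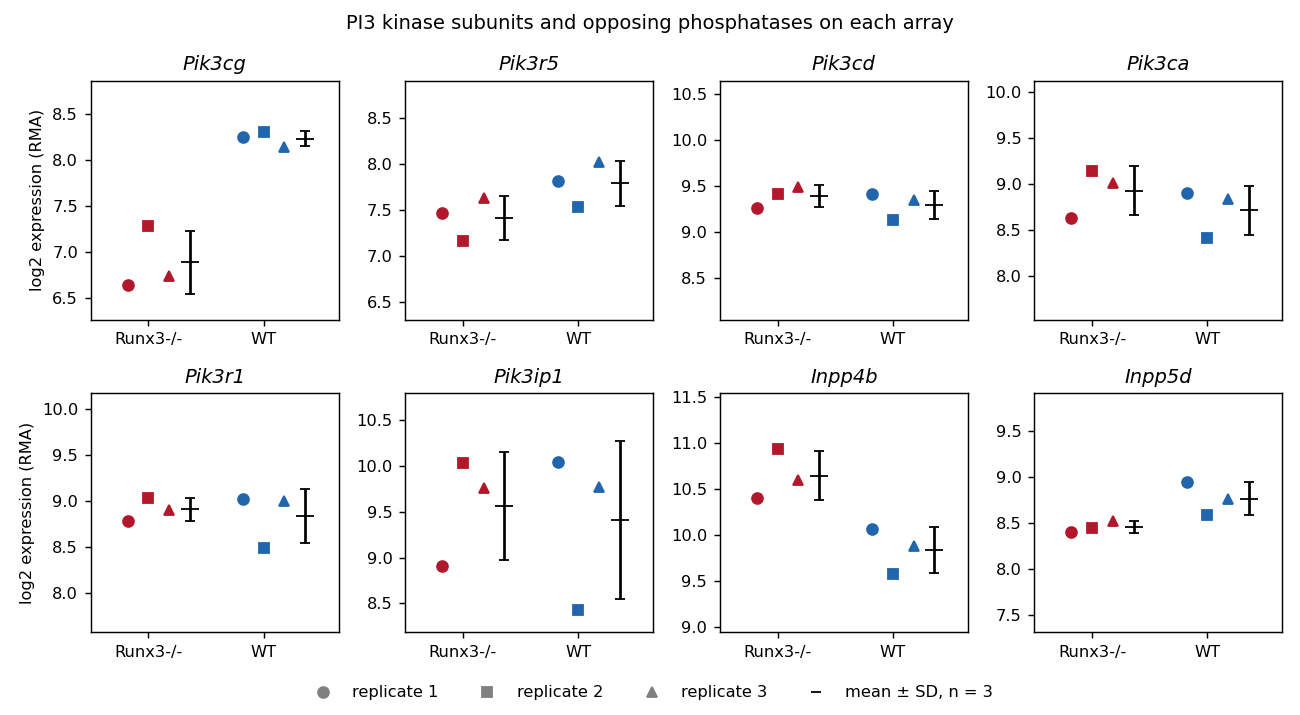
Log2 expression (RMA) of the 8 members on each array, with Runx3-/- in red at the left and WT in blue at the right of each panel; symbols mark the replicates, black marks show mean ± SD (n = 3), and each panel spans the same 2.6 log2 units. Pik3cg is lower on all 3 Runx3-/- arrays, Inpp4b is higher on all 3, and Pik3ip1 scatters most within both genotypes.

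Pik3cg, the catalytic subunit of the class IB enzyme, was the member that fell. It stood at 6.64, 7.28 and 6.74 in KO cells, against 8.25, 8.30 and 8.14 in WT cells (log2). The WT values were within 0.16 of each other and the highest KO value was 0.86 below the lowest WT value, so the groups did not overlap. Mean expression was 6.89 ± 0.34 in KO and 8.23 ± 0.083 in WT cells (SD, n = 3 each), a log2 difference of -1.34 (SE 0.19, 95% interval -1.80 to -0.88, limma adjusted p = 0.0441), or 2.54-fold lower. The KO array with the highest value, KO2, is also the one with the low cell-cycle genes, and without it the difference was -1.54 (adjusted p = 0.0329). Leaving out any other array kept the size, between -1.39 and -1.22, but ended the call, with an adjusted p of 0.0832 without KO1, 0.171 without KO3, 0.141 without WT1, 0.114 without WT2 and 0.153 without WT3. Without both KO2 and WT2 it was -1.51 (adjusted p = 0.0301), and with the mean of the G2/M genes as a covariate it was -1.36 (adjusted p = 0.0217). The call ended after quantile normalization (adjusted p = 0.0655), with no filter on dim rows (0.0793), with the replicate number as a block (0.183) and without moderation of the variances (0.270).

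Some NK cell markers were lower in KO cells, as Pik3cg was, and their part in the result was not tested. The study reports that nearly all cells were CD3+ CD8-TC at the end of culture, with no separate value per genotype. Of 8 listed markers in the table, 5 were tested and 4 of these (Nkg7, Klrb1c, Gzma and Eomes, several of which cytotoxic CD8-TC also express) were lower in KO cells at the study threshold, which 4.33% of all tested genes passed downward, while none passed an adjusted p of 0.05. The fifth, Klri2, had a log2 difference of -0.18 (adjusted p = 0.583). The mean level of the 8 was 5.08 to 5.86 in KO and 6.18 to 6.55 in WT cells. Ncr1, the activating receptor NKp46 that defines NK cells, was at 3.30 to 3.41 in KO and 3.49 to 3.51 in WT cells, below the table median on every array. Also below it throughout were Klra8, at 3.25 to 3.43 in KO and 3.31 to 3.36 in WT cells, and Fcgr3, at 3.80 to 3.99 in KO and 3.63 to 3.72 in WT cells. Cd79b, a part of the B cell receptor, was at 4.64 to 5.21 in KO and 5.53 to 6.12 in WT cells, whereas the B cell gene Ms4a1 was at 3.54 to 3.91 in KO and 3.45 to 3.59 in WT cells. Cd68, a lysosomal protein of myeloid cells, was at 4.62 to 5.79 in KO and 5.41 to 6.27 in WT cells, and Itgax, which encodes CD11c, was at 3.31 to 3.42 in KO and 3.48 to 3.72 in WT cells.

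Pik3r5, the p101 partner of p110gamma, was at 7.46, 7.16 and 7.63 in KO cells and at 7.82, 7.54 and 8.02 in WT cells. The groups overlapped, since the highest KO value was above the lowest WT value. The log2 difference of -0.38 (SE 0.19, 95% interval -0.83 to 0.07, limma adjusted p = 0.417) did not pass the test, and its interval leaves room for a fall larger than 1.5-fold. It was below 0 in all 18 alternative settings, between -0.51 and -0.25. Several of these settings change only the filter or the variance and cannot move the difference. Pik3r6, the other regulatory subunit gene of the class IB enzyme, was dim on all 6 arrays and so not tested, at 3.77 to 3.89 in KO and 3.97 to 4.19 in WT cells. Whether the differences of Pik3cg and Pik3r5 are unequal was not tested.

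The class IA catalytic subunits showed no difference past the test. Pik3cd, whose p110delta is the main PI3K isoform of lymphocytes below the TCR, was at 9.26, 9.42 and 9.49 in KO cells and at 9.41, 9.13 and 9.35 in WT cells. The values of the genotypes interleaved, and the log2 difference was 0.09 (SE 0.15, 95% interval -0.25 to 0.44, limma adjusted p = 0.799), an interval that stays within a 1.5-fold change, 0.58 on this scale, in either direction.

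Pik3ca, which encodes the widely expressed p110alpha, was at 8.63, 9.14 and 9.02 in KO cells and at 8.90, 8.41 and 8.84 in WT cells. KO1 was the lowest of the KO arrays and WT2 the lowest of all 6. The difference was 0.21 (SE 0.20, 95% interval -0.27 to 0.69, limma adjusted p = 0.650), and the upper end of that interval is past 1.5-fold. Without KO2 and WT2 the differences were -0.05 for Pik3ca and -0.01 for Pik3cd, so neither has a settled sign.

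Pik3r1, which encodes the p85alpha adaptor subunit that stabilises and restrains class IA p110, was at 8.78, 9.04 and 8.90 in KO cells and at 9.02, 8.49 and 9.0 in WT cells. WT2 was about 0.5 below the other WT arrays, both of which were within the range of the KO arrays. The log2 difference was 0.07 (SE 0.18, 95% interval -0.37 to 0.51, limma adjusted p = 0.889). Its sign turned when WT2 was left out, at -0.10.

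Pik3ip1, the inhibitor of p110, varied more within a genotype than between them. Its values were 8.91, 10.03 and 9.76 in KO cells and 10.04, 8.43 and 9.77 in WT cells. KO1 and WT2 were the low arrays, the range within KO was 1.12 and within WT 1.61, and the difference of means was 0.15 (SE 0.47, 95% interval -0.96 to 1.26, limma adjusted p = 0.909). This interval spans changes larger than 1.5-fold in both directions. Leaving out WT2 gave -0.34 and leaving out KO2 gave -0.08.

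Inpp4b, the 4-phosphatase that acts on the product of SHIP-1, was higher in all 3 KO arrays. It was at 10.40, 10.94 and 10.60 in KO cells, against 10.06, 9.57 and 9.88 in WT cells. The lowest KO value was 0.34 above the highest WT value. Means were 10.65 ± 0.27 in KO and 9.84 ± 0.25 in WT cells (SD, n = 3 each), a log2 difference of 0.81 (SE 0.20, 95% interval 0.34 to 1.28), or 1.75-fold higher. This passed the study threshold but not the adjusted one (limma adjusted p = 0.157). Over 18 alternative settings the difference was between 0.53 and 0.93, with adjusted p between 0.0485 and 0.460, and it was 0.92 without WT1. The smallest, 0.53, came without KO2 and WT2, where it no longer reached 1.5-fold, since KO2 held the highest KO value and WT2 the lowest WT value.

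Inpp5d, the 5-phosphatase SHIP-1 of blood cells, was at 8.41, 8.44 and 8.53 in KO cells and at 8.95, 8.59 and 8.76 in WT cells. The KO values lay within 0.12 of each other and just below the WT values, with a gap of 0.07 between the groups. The log2 difference was -0.31 (SE 0.14, 95% interval -0.65 to 0.03, limma adjusted p = 0.391), which did not pass the test. It was below 0 in all 18 alternative settings, between -0.39 and -0.22, of which several cannot move the difference. The phosphatases of the set therefore did not share a sign, with Inpp4b higher in mean and Inpp5d lower in mean in KO cells.

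**Figure D2:**
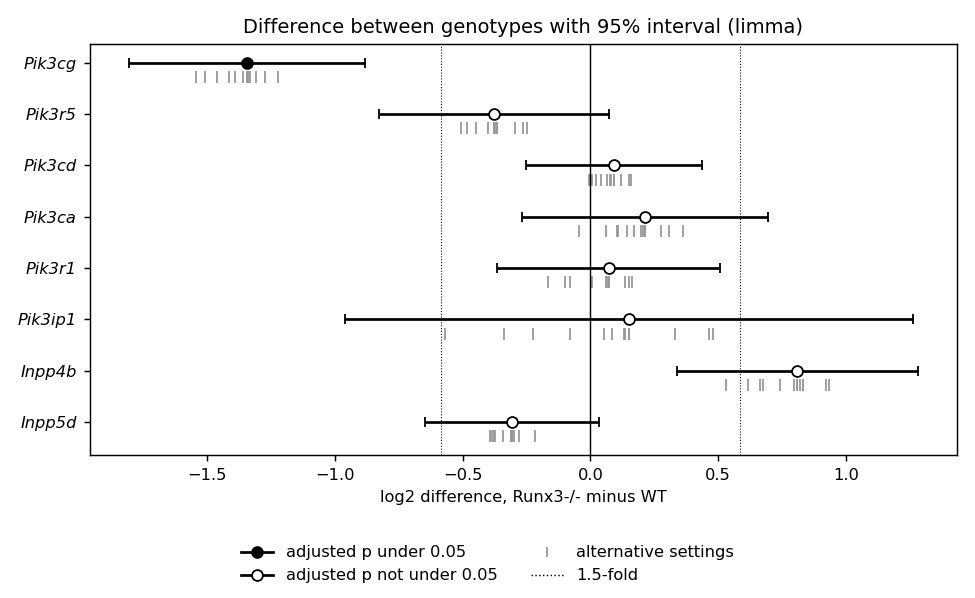
Log2 difference, Runx3-/- minus WT, of each member with its 95% interval (limma, n = 3 mice per genotype); grey ticks are the 18 alternative settings and dotted lines mark a 1.5-fold change. Pik3cg (-1.34) is the filled point with adjusted p under 0.05, the interval of Inpp4b (0.34 to 1.28) lies above 0, and the other 6 intervals span 0.

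Most members shared their low WT array. WT2 was the lowest of the 3 WT arrays for 7 of the 8 members, all but Pik3cg, while it was the lowest for 42.4% of all tested genes. KO2 was the highest of the 3 KO arrays for 5 of the 8, against 28.3% of tested genes. The profiles of the class IA genes, were closest to each other. After each gene's own mean was subtracted, the root mean square difference over the 6 arrays was 0.11 log2 units between Pik3cd and Pik3r1, 0.11 between Pik3ca and Pik3r1 and 0.14 between Pik3cd and Pik3ca. Pik3r5 and Inpp5d differed by 0.17, and Pik3cg and Inpp4b were farthest apart, at 1.09. These distances hold the genotype difference and the spread between arrays together, over 6 arrays that fall into 2 genotypes, and are given as a description.

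**Figure D3:**
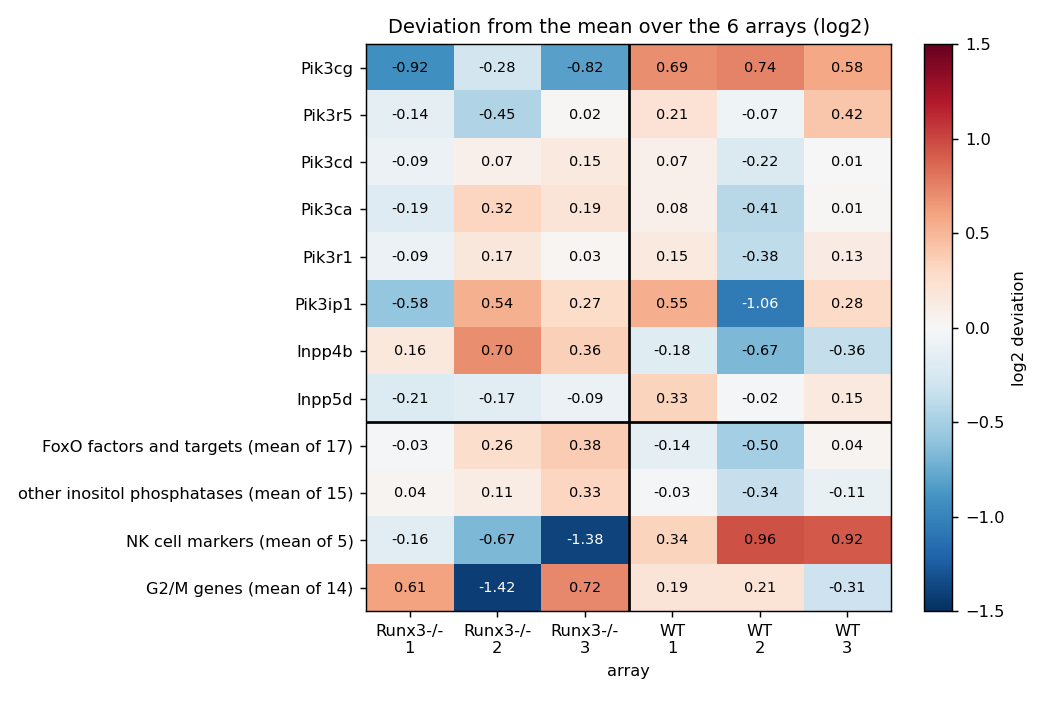
Log2 deviation of each member, and of the mean of 4 gene lists, from its mean over the 6 arrays, with the Runx3-/- arrays at the left and the WT arrays at the right. Pik3cg is below its mean on all 3 Runx3-/- arrays, Pik3ip1 is lowest on WT2 (-1.06), and the G2/M genes are lowest on Runx3-/- array 2 (-1.42).

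By the same measure, the tested genes whose profile was most like that of Pik3cg were Hic1 (0.20 log2 units), Pygm (0.22) and Nckap1 (0.23). Pygm, the muscle-type glycogen phosphorylase, had a log2 difference of -1.29 (limma adjusted p = 0.0179), Nckap1 one of -1.16 (adjusted p = 0.0677) and Hic1 one of -0.99 (adjusted p = 0.116). The genes most like Inpp4b were Klhl3 (0.07), Stk4 (0.09) and Lipa (0.10), with log2 differences of 0.91, 0.73 and 0.91 (adjusted p = 0.144, 0.215 and 0.140). Those most like Pik3r5 were Rpl36 (0.05), Dctn2 (0.08) and Chp1 (0.08), and those most like Inpp5d were Ostm1 (0.03), Rbck1 (0.04) and Smim4 (0.05). Phf14 (0.02), Trappc9 (0.02) and Cnot4 (0.03) were nearest to Pik3cd, Gadd45a (0.03), Klhl6 (0.03) and Zfp740 (0.03) to Pik3ca, Limd1 (0.03), Brap (0.04) and Nin (0.05) to Pik3r1, and Zfp945 (0.19), Zfp652 (0.20) and Klhl42 (0.22) to Pik3ip1. These distances are to be read against each member's own spread about its mean, which was 0.70 for Pik3cg, 0.61 for Pik3ip1, 0.46 for Inpp4b and 0.12 to 0.27 for the other 5.

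The wider pathway was described with 7 lists, which name 124 further genes. A row with a single symbol was found for 113 of them and 105 were tested. None passed an adjusted p of 0.05 in limma, the smallest being 0.0624, while 27 of the 105 had an unadjusted p under 0.05, as had 14.1% of all tested genes. At the study threshold 14 were higher and 5 lower in KO cells, which is 13.3% and 4.76% of those tested, against 3.97% and 4.33% of all tested genes. The lists were chosen with earlier results of these data known, so these shares are a description and not a test. The count of higher genes hung on single arrays, with 6 left without KO3, 7 without WT2 and 9 without KO2. It was 14 without WT1, 18 without WT3, 20 without KO1 and 6 without both KO2 and WT2. Over all tested genes the count of 398 became 276 without KO3, 245 without WT2 and 463 without KO2. That count was 448 without WT1, 504 without WT3, 514 without KO1 and 510 without both KO2 and WT2. Scaling moved the balance of higher and lower genes in the lists as over all tested genes. In the lists it was 14 to 5 (73.7% higher) as deposited, 12 to 7 (63.2%) after quantile normalization and 11 to 9 (55%) after median normalization of the arrays, and over all tested genes the share higher was 47.8%, 40.9% and 37.9% in the same order.

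Among 7 tested genes for other PI3K subunits and adaptors, 2 were higher and 1 lower at the study threshold. Higher ones numbered 0 without KO3 and 1 without KO1, KO2, WT1 or WT2, and lower ones 2 without WT3. Pik3ap1, the adaptor BCAP that carries p85 to receptors of B and myeloid cells, was at 5.10, 5.01 and 4.96 in KO cells and at 6.19, 5.59 and 5.97 in WT cells. The groups did not overlap, with a log2 difference of -0.90 (limma adjusted p = 0.105). The class IA adaptor subunit p85beta, encoded by Pik3r2, was at 4.59, 4.88 and 5.28 in KO cells and at 4.37, 4.21 and 3.98 in WT cells (0.73, adjusted p = 0.221), so that some of its WT values were below the table median. Pik3c2a, a class II enzyme that makes other phosphoinositides, was at 7.76, 7.99 and 7.91 in KO cells and at 7.31, 6.81 and 7.73 in WT cells (0.60, adjusted p = 0.325).

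Of 15 other tested inositol phosphatases, most of which act on membrane lipids, 4 were higher and 0 lower at the study threshold, and the median difference of the list was 0.21. The count was 1 without KO2 and WT2, and 2 without KO3 or without WT2. Inpp5f, also called SAC2, was at 5.15, 5.77 and 5.57 in KO cells and at 4.65, 4.42 and 4.62 in WT cells (log2 difference 0.93, limma adjusted p = 0.109). Inpp5a, which, like Inpp1 of this list, acts on soluble inositol phosphates and not on lipids, was at 5.78, 6.56 and 6.82 in KO cells and at 5.35, 4.73 and 5.52 in WT cells (1.19, adjusted p = 0.200). Neither gene's groups overlapped. Synj1, the phosphatase synaptojanin of endocytic vesicles, and Mtm1, the 3-phosphatase myotubularin, had differences of 0.60 (adjusted p = 0.229) and 0.67 (adjusted p = 0.256), again with no overlap.

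**Figure D4:**
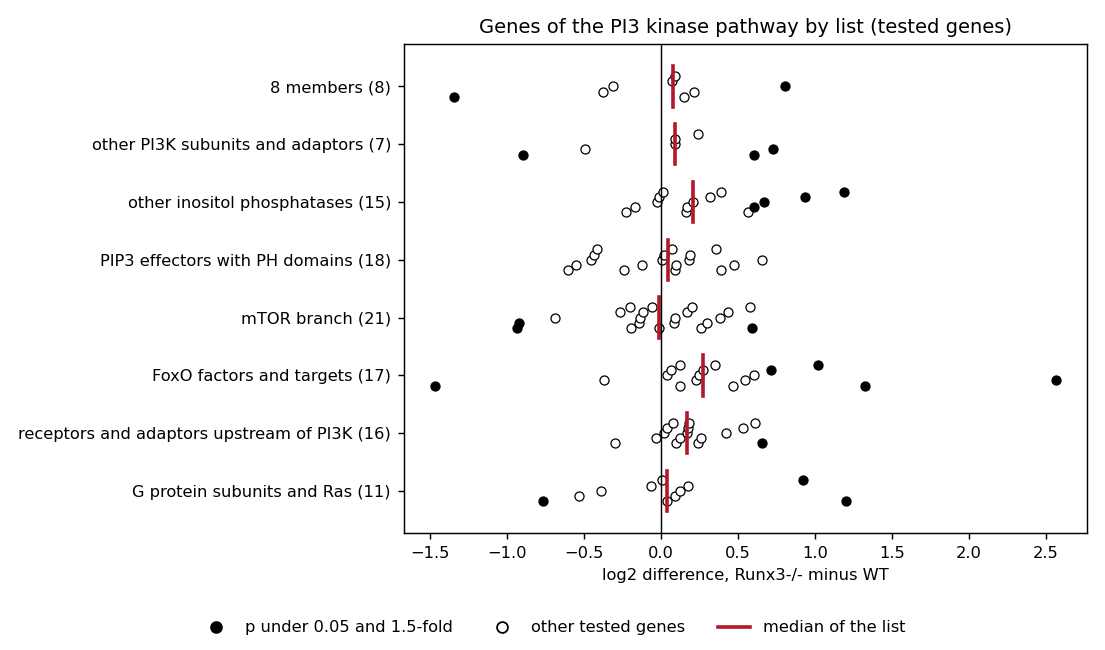
Log2 difference, Runx3-/- minus WT, of every tested gene in the set of 8 members and in 7 pathway lists, with the number tested in parentheses; filled points passed the study threshold (p under 0.05 and 1.5-fold) and red bars are list medians. The phosphatase and FoxO lists have 4 filled points each to the right of 0, and the list labelled PIP3 effectors with PH domains has none.

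The list labelled PIP3 effectors with PH domains held no gene past the study threshold, among 18 tested. Not every gene in it binds PIP3 through a PH domain. Its median difference was 0.05, against -0.01 over all tested genes, and -0.02 against -0.09 after median normalization. Higher ones numbered 2 without KO1 and 1 without WT3, and 1 was lower when KO1, KO2, KO3, WT2 or WT3 was left out. Akt1 and Pdpk1, which encode kinases that act directly below PIP3, were singled out here after their values were seen. Akt1 was at 8.0, 7.52 and 8.02 in KO cells and at 8.16, 8.47 and 8.21 in WT cells (log2 difference -0.44, limma adjusted p = 0.357). Pdpk1, which phosphorylates Akt, was at 8.54, 8.96 and 9.06 in KO cells and at 8.44, 8.23 and 8.47 in WT cells (0.47, adjusted p = 0.312). Neither gene's groups overlapped, and neither passed the adjusted threshold or reached 1.5-fold. The other tested kinase genes of the list had overlapping groups. Their log2 differences were 0.0073 for Akt2 (limma adjusted p = 0.986), -0.24 for Tec (adjusted p = 0.660) and 0.19 for Txk (adjusted p = 0.744).

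In the list of the mTOR branch, 1 of 21 tested genes was higher and 2 were lower at the study threshold. Higher ones numbered 0 without KO2, KO3 or WT2 and 2 without KO1 or WT3, and lower ones 1 without KO2 or WT1. Ddit4, an inhibitor of mTOR complex 1 also known as REDD1, was at 7.20, 6.66 and 7.29 in KO cells and at 7.93, 8.16 and 7.84 in WT cells, with a log2 difference of -0.92 (limma adjusted p = 0.126). Sesn2, a stress-induced inhibitor of the same complex, was at 5.52, 4.80 and 5.15 in KO cells and at 6.40, 6.41 and 5.46 in WT cells (-0.94, adjusted p = 0.267), with overlapping groups. Tsc1, which restrains Rheb above mTOR, was at 6.56, 6.89 and 6.97 in KO cells and at 6.40, 5.97 and 6.28 in WT cells (0.59, adjusted p = 0.239).

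The FoxO transcription factors, which Akt keeps out of the nucleus, and genes known to respond to them made up a list of 17 tested genes, of which 4 were higher and 1 lower at the study threshold. Its median difference was 0.27, and 15 of the 17 were higher in mean in KO cells, against 4810 of all 10021 tested genes. After median normalization the list had a median of 0.20 with 13 of 17 higher, against a median of -0.09 over all tested genes. Without KO2 and WT2 the median of the list was 0.08, 10 of 17 were higher in mean and 2 passed the threshold upward. Those passing upward also numbered 2 without KO2, KO3 or WT2, and 6 without KO1. Il7r, which encodes the IL-7 receptor alpha chain, was at 10.52, 11.06 and 11.03 in KO cells and at 7.90, 7.59 and 9.41 in WT cells (log2 difference 2.57, limma adjusted p = 0.0718). S1pr1, the receptor that guides T cells out of lymphoid tissue, was at 10.05, 11.00 and 10.86 in KO cells and at 8.94, 9.23 and 9.77 in WT cells (1.32, adjusted p = 0.147). Gabarapl1, an autophagy gene, ran the other way, at 7.20, 5.79 and 7.03 in KO cells and at 8.05, 8.36 and 8.02 in WT cells (-1.47, adjusted p = 0.162). The transcriptional repressor gene Bcl6 was at 5.11, 6.07 and 5.98 in KO cells and at 4.97, 4.14 and 4.99 in WT cells (1.02, adjusted p = 0.268), with no overlap in any of these 4 genes. The remaining gene higher at the threshold was Foxo1, a FoxO factor itself. It was at 8.78, 9.62 and 9.34 in KO cells and at 8.44, 8.39 and 8.76 in WT cells (0.72, limma adjusted p = 0.272), also without overlap.

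Upstream of PI3K, 1 of 16 tested receptors and adaptors passed the study threshold. This was Cbl, a ubiquitin ligase that binds p85, at 8.87, 9.53 and 9.32 in KO cells and 8.72, 8.20 and 8.83 in WT cells (log2 difference 0.65, limma adjusted p = 0.297). It did not pass without KO2, without KO3 or without WT2, while 2 genes passed without KO1 or WT1 and 3 without WT3. The median of the list was 0.17, and 14 of the 16 were higher in mean in KO cells, or 11 of 16 without KO2 and WT2. Of all 10021 tested genes, 4810 were higher in mean. After median normalization the list had a median of 0.10 with 12 of 16 higher, against a median of -0.09 over all tested genes.

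The list of G protein subunits and Ras proteins had 11 tested genes. It also holds alpha subunits, so not every gene in it acts directly on a p110 isoform. Of the 11, 2 were higher and 1 lower at the study threshold, with 0 lower without KO2 and 2 lower without KO1. Gng12, a G protein gamma subunit, was at 7.19, 6.82 and 7.20 in KO cells and at 5.54, 5.97 and 6.09 in WT cells, a log2 difference of 1.20 (limma adjusted p = 0.0624) with no overlap. Gnb4, a beta subunit, was at 6.90, 6.31 and 6.98 in KO cells and at 5.60, 5.84 and 5.97 in WT cells (0.93, adjusted p = 0.140). Rras, a Ras-related small GTPase, was at 6.01, 5.59 and 6.26 in KO cells and at 6.51, 7.0 and 6.65 in WT cells (-0.77, adjusted p = 0.216). The median of the list was 0.04, against -0.01 over all tested genes, and -0.03 against -0.09 after median normalization.

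Of 5 tested markers of CD4+ T cells, which the sort after culture was meant to reduce in KO cells, 2 were higher and 0 lower at the study threshold, which 3.97% of all tested genes passed upward. Cd4 was at 6.95, 6.70 and 6.77 in KO cells and at 5.29, 5.80 and 6.50 in WT cells (log2 difference 0.95, limma adjusted p = 0.250), and Zbtb7b, the transcription factor of the CD4 lineage, was at 6.29, 5.70 and 6.56 in KO cells and at 5.24, 5.55 and 5.85 in WT cells (0.64, adjusted p = 0.342). Runx3 is known to repress both genes in CD8-TC. The other tested markers had log2 differences of -0.32 for Foxp3 (adjusted p = 0.764), -0.24 for Ikzf2 (adjusted p = 0.803) and 0.11 for Ctla4 (adjusted p = 0.938). Cd40lg, a helper T cell ligand, was at 3.53 to 3.67 in KO and 3.49 to 3.72 in WT cells. The mean level of the 6 markers was 6.33 to 6.56 in KO and 6.03 to 6.54 in WT cells, and its part in the differences of the PI3K genes was not tested.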

How the data were processed

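Cells of each mouse gave 1 total RNA sample for 1 Affymetrix mouse gene ST 1.0 array. Partek was used by the authors to normalise the scans with the RMA algorithm (robust multichip average) and a GC correction, per the labels and methods, and the deposited values are on the log2 scale, with 1 column per array. No version of Partek is stated in the labels or methods. RMA compresses low values, so changes of dim genes are understated, and it gives no detection calls. The number of arrays limits the precision.

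Of 35399 rows, 21789 had 1 gene symbol, 1621 several and 11989 none in the probe table. The row with the highest mean stood for a gene. KO and WT arrays were compared with limma 3.58.1 (R 4.3.3; lmFit, eBayes, two-sided, no covariate), with Benjamini-Hochberg adjustment over 10021 genes. Differences are KO minus WT. Replicates are individual mice. Same-numbered arrays did not deviate together (correlations of -0.13, -0.37 and -0.13). With 3 arrays per genotype, and KO2 and WT2 at opposite ends of the first component, these values cannot decide whether same-numbered arrays shared a batch. The main fit does not pair them, and the replicate block was run as an alternative. The fit was also run on simulated data with independent normal noise for each gene and no effect shared within an array. That run cannot show how the fit behaves with arrays that stand apart, as KO2 and WT2 do. Members and lists were chosen with earlier results of these data known. Named genes are all members, Runx3, the 3 genes with the nearest profile per member, up to 4 genes per pathway list past the study threshold by smallest p, and markers. Akt1, Pdpk1, Akt2, Tec, Txk, Pik3r6 and Foxo1 fall outside this rule and were named after their values were seen. Figures were drawn with matplotlib 3.10.9.

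Results were recomputed with other filters on dim rows, with quantile or median normalization of the arrays, with several rows per gene averaged or all tested, with a replicate block, with other variance settings (trended and robust priors, no moderation, array weights), with the G2/M mean as a covariate, without KO2 and WT2, and without each array in turn.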

Additional observations from a re-analysis of the deposited data

How the results depend on the processing

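Pik3cg kept its sign in 18 of 18 alternatives, with log2 differences between -1.54 and -1.22 and an unadjusted p under 0.05 in all of them, and it passed an adjusted p of 0.05 (limma) in 9. Inpp4b, Inpp5d and Pik3r5 also kept their sign in 18 of 18. For every member, the filters on dim rows, the choice of rows, the replicate block, the priors and the unmoderated fit left the difference unchanged. Those settings could not turn a sign, so the counts of kept signs rest on the others. The number of members past an adjusted p of 0.05 was 0 with no filter on dim rows (Pik3cg adjusted p = 0.0793), after quantile normalization (0.0655), with an unmoderated model (0.270) and with the replicate number as a block (0.183), 2 with array weights (Pik3cg and Inpp4b), and 0 to 1 with 1 array left out. Members higher at the study threshold were 0 without KO2 and WT2. Signs turned without KO2 and WT2 for Pik3cd (-0.0072), Pik3ca (-0.045), Pik3r1 (-0.17) and Pik3ip1 (-0.57), and with array weights for Pik3r1 (-0.080) and Pik3ip1 (-0.23). With 1 array left out, Pik3r1 ranged from -0.10 to 0.16 and Pik3ip1 from -0.34 to 0.48. In the pathway lists, genes past the adjusted threshold were 1 after quantile normalization (Pik3ap1), 2 with the G2/M covariate (Ddit4 and Gabarapl1), 12 with array weights and 0 to 1 with 1 array left out (Il7r, without WT3). Pathway genes higher at the study threshold were 6 without KO2 and WT2 and 6 to 20 with 1 array left out, and lower ones were 9 after median normalization and 8 with array weights. Over all genes, 63 calls became 36 with no filter, 547 with array weights, 1 with the block, 0 with the unmoderated model and as few as 9 with 1 array left out. The median over all genes was -0.01, and -0.06 after quantile and -0.09 after median normalization. The causes were not tested.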
